A study of Mus musculus with 11 samples.

Results

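The transcripts of 40 genes of autophagy were followed in β-cells sorted by their GFP label from WT and *Raptor* knockout mice. The 40 genes are a list of core autophagy factors and cargo receptors, 40 of the 34728 gene symbols in the expression table, and all of them were measured in all 11 libraries. WT mice carried RIP-Cre, intact *Raptor* and the Rosa26 GFP reporter (3 libraries), diabetic βRapKOGFP mice carried the same Cre and reporter with *Raptor* deleted (4 libraries), and euglycemic βRapKOGFP mice were the same mutant given an insulin pellet for 4 weeks (4 libraries). All mice were males of 8 weeks on a mixed C57BL/6 x 129SV background. RIP-Cre and the GFP reporter are thus shared by every group, and Cre was driven by the rat insulin promoter in cells that were then sorted for GFP, a sort that the study's methods describe as less than pure. The labels do not say whether the libraries of a group came from separate animals or from pools, so every p-value below measures the spread between these libraries, which may be partly technical.

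Autophagy encloses cytoplasm, organelles or selected cargo in a double membrane and delivers it to the lysosome. Raptor is the subunit that defines mTOR complex 1 (mTORC1), which in fed cells phosphorylates ULK1 and ATG13 and so holds back the initiation of autophagy, and which also keeps the transcription factor TFEB out of the nucleus. TFEB binds the CLEAR element, built around the E-box core CACGTG, in promoters of lysosomal and autophagy genes. In β-cells autophagy is known for the turnover of mitochondria and insulin granules. Much of this control acts on proteins, and the values here are transcript levels, in FPKM (fragments scaled by transcript length and library depth), so neither autophagic flux nor the activity of any of these proteins was measured.

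*Rptor*, the deleted gene, was listed at FPKM of 0.948, 1.37 and 1.79 in the WT libraries, at 0.938, 0.831, 0.507 and 0.485 in diabetic βRapKOGFP and at 0.423, 0.482, 0.623 and 0.438 in euglycemic βRapKOGFP. No mutant library reached the lowest WT library (two-sided exact permutation test, p = 0.0121 over 8 mutant and 3 WT libraries, the smallest this design allows). The highest mutant library (0.938) and the lowest WT library (0.948) all but met. Mean FPKM was 0.591 over the mutants against 1.37 in WT, so a part of the signal remained. All 10 β-cell markers examined had a mean of at least 1 FPKM in every group, and their summed FPKM was 157600 to 191500 in WT, 138200 to 206500 in diabetic and 117300 to 202200 in euglycemic mutants. Of the 8 mutant libraries, 6 lay below the lowest WT library, and diabetic library 2 and euglycemic library 4 lay above the highest. Markers of other cells differed too. The summed FPKM of 8 acinar genes was 3.54 to 33.8 in WT and reached 2058 in diabetic and 3692 in euglycemic βRapKOGFP, being high in 5 of the 8 mutant libraries. The summed FPKM of 5 α-cell genes was 1047 to 2438 in WT, 3935 to 14720 in diabetic and 4759 to 23770 in euglycemic mutants, and that of 3 δ- and PP-cell genes was 1933 to 3380, 8350 to 23390 and 9648 to 24020. The sum of 4 duct genes was highest in the euglycemic libraries (95.8 to 131, against 58.1 to 71.6 in WT and 57.3 to 86.2 in diabetic libraries), and it thus moved with the group in which *Calcoco1* was called. The sums of 6 endothelial and 4 mesenchymal genes were highest in the diabetic libraries, at 8.51 to 49.7 FPKM against at most 4.38 elsewhere and at 0.563 to 14.9 against at most 0.496, and they moved with the difference between the mutant groups. The part of these cells in the results below was not tested, except for acinar transcripts where values are given. In bulk RNA, fewer cells of a type and less RNA per cell cannot be told apart. The libraries also differed in how their values run with transcript length. Per doubling of transcript length, the log2 deviation of a library from the mean of all libraries changed by -0.149 in WT library 1 and by -0.14 to -0.09 in the euglycemic libraries, against 0.114 and 0.134 in WT libraries 2 and 3 and 0.016 to 0.176 in the diabetic libraries. Depth inferred from the values was 9506209 to 16658772 fragments per library, lowest in euglycemic library 4.

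The genes of the list spanned a wide range of levels. FPKM is per length, which allows a rough order of genes. Values still ran with transcript length, and some genes, such as *Bnip3* and *Gabarapl1*, share part of their sequence with other genes. *Sqstm1*, which encodes the cargo receptor p62, was highest with a mean FPKM of 115 over the 11 libraries. *Gabarap* (106), *Gabarapl2* (94.9), *Bnip3* (86.1) and *Gabarapl1* (65.8) followed, and below them came a step to *Atg101* at a mean FPKM of 29.4. This was the only step in the order at which neighbours did not overlap: of the 39 pairs of neighbours, 38 had overlapping ranges over the libraries. At the low end *Rb1cc1*, encoding the ULK scaffold FIP200, had a mean FPKM of 1.76 and the protease gene *Atg4c* had 1.36. The inferred number of fragments behind a value was 31 to 97 per library for *Atg4c*, 166 to 638 for *Calcoco1* and 1897 to 6577 for *Sqstm1*, so that the counting error is larger for the low genes. Together the 40 genes held 0.218% of all FPKM. All 40 passed the minimum for testing, which asked for 1 FPKM or more in 3 or more libraries.

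Promoter windows of RefSeq (GRCm38.p6, 250 bases before to 50 after the start of transcription) were found for 33 of the 40 genes, some of which had more than 1 window. Counts below are of genes with a match in any window. The E-box core CACGTG, searched as an exact match, occurred for 5 of the 33 genes (15.2%), *Atg3*, *Atg5*, *Atg7*, *Atg14* and *Bnip3*, against 12.2% of all 8471 tested genes that had a window. TCACGTG, which contains the former and was searched on both strands, occurred for 3 (9.09%, against 7.4%). The forkhead motif GTAAACA and the C/EBP-ATF4 element TGATGNAA, both searched on both strands, had no exact match for any of the 33 genes, against 3.1% and 2.6% of all tested genes with a window. The windows of 3 genes are shown: that of *Calcoco1* (chr15:102722129-102722428, minus strand), the only gene of the list whose change passed the test, and those of *Atg3* (chr16:45158579-45158878, plus strand) and *Bnip3* (chr7:138909457-138909756, minus strand), which hold the E-box. Capitals mark the matches.
Calcoco1: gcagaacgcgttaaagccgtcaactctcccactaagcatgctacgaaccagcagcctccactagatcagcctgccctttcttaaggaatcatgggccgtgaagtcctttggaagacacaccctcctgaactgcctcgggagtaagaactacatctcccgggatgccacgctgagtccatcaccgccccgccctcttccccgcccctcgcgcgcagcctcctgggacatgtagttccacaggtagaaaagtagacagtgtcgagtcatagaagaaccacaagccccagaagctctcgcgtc
Atg3: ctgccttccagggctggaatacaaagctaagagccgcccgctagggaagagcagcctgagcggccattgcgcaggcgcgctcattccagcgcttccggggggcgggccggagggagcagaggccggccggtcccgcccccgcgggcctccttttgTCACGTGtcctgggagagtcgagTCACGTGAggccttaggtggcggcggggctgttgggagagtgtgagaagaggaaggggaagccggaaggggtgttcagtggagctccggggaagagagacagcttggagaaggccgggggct
Bnip3: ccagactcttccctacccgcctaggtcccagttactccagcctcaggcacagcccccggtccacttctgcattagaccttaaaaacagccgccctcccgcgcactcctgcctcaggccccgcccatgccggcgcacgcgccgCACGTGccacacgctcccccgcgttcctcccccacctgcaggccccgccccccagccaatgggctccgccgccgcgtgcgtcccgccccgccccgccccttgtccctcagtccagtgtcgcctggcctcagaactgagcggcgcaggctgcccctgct
The *Atg3* window held TCACGTG from base -95 to -89 and again from -72 to -66 relative to the start, and the *Bnip3* window held CACGTG from -108 to -103. In the *Calcoco1* window none of the searched letters occurred, which says only that they are not in these 300 bases. These matches are descriptions of the sequence and were not tested as binding sites.

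Diabetic mutants were compared with WT first. These groups differ in *Raptor* and in blood glucose, which cannot be told apart in this comparison. No gene of the list passed the test, which asked for a change of 1.5-fold or more with an adjusted p not above 0.05 (limma, Benjamini-Hochberg over all 11251 genes tested), against 0.969% of all tested genes. At an unadjusted p of at most 0.05 there was 1 of the 40, *Calcoco1* on the lower side, against 11.9% of all genes in either direction and 5.74% on the lower side. The median log2 fold change of the 40 genes was 0.02, against 0.0063 for all genes, and single genes ranged from -0.68 for *Atg10* to 0.43 for *Sqstm1*. Over the alternatives the estimate of *Atg10* lay between -0.79 and -0.17 and that of *Sqstm1* between 0.13 and 1.13. Of the list, 4 genes had every diabetic library below every WT library (*Atg101*, *Atg10*, *Atg12*, *Atg16l1*), where 6.88% of all genes did, and *Nbr1* had every diabetic library above every WT library, where 6.67% did. None of these 5 passed the test.

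In euglycemic mutants against WT, 1 gene of the 40, *Calcoco1*, was differentially expressed and lower, where 0.551% of all genes were called in either direction and 0.196% were called lower. No WT mice were given a pellet, so loss of *Raptor* and the pellet cannot be told apart in this comparison. At an unadjusted p of at most 0.05, 4 genes of the list were found, against 13.9% of all genes, with *Calcoco1*, *Uvrag* and *Atg2b* on the lower side (6.52% of all genes) and *Gabarap* on the higher side (7.33%). The median log2 fold change of the list was -0.09, against -0.01 for all genes, and its sign turned with a mean FPKM of at least 5 as the minimum for testing. Groups did not overlap for *Uvrag*, *Atg12* and *Calcoco1* on the lower side (5.02% of all genes) and for *Gabarap* and *Bnip3l* on the higher side (5.91%). This comparison and the former share the 3 WT libraries, so their values are given side by side below and not set against each other. With both mutant groups against WT, *Calcoco1* was again the only gene called, where 1.05% of all genes were called in either direction and 0.516% were called lower, and at an unadjusted p of at most 0.05 it was also alone, against 11.3% of all genes (5.37% on the lower side). *Atg12*, which encodes the ubiquitin-like protein joined to ATG5, was the only gene of the list with all 8 mutant libraries below all WT libraries (1.78% of all genes), with 12.59 FPKM in the highest mutant library against 12.64 in the lowest WT library, and its change did not pass the test (log2 fold change -0.42 ± 0.23 SE, adjusted p = 0.557).

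**Figure D1:**
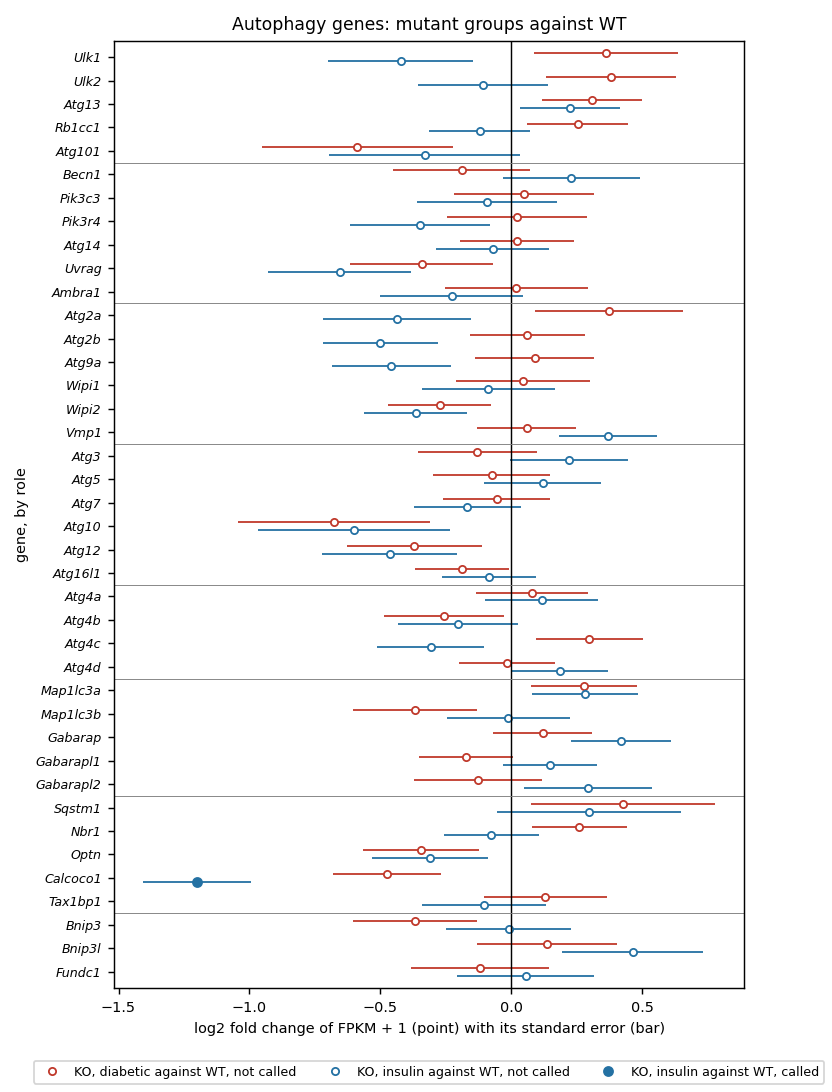
Log2 fold change of FPKM + 1 (horizontal axis, point) with its standard error (bar) for the 40 autophagy genes, grouped by role from the initiation complex at the top to the mitophagy receptors at the bottom. Red is diabetic βRapKOGFP against WT and blue is euglycemic βRapKOGFP (insulin) against WT, and the filled point, *Calcoco1* at -1.20, is the only change that passed the test.

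*Calcoco1* encodes a relative of the receptor NDP52 that binds ATG8 proteins and is known as a receptor for the turnover of endoplasmic reticulum and Golgi. The gene lies on the minus strand at chr15:102706777-102722178 (GRCm38). Its FPKM was 9.27, 16.6 and 15.9 in the WT libraries. It was 8.47, 10.01, 9.28 and 10.1 in diabetic βRapKOGFP and 5.58, 4.70, 5.15 and 5.87 in euglycemic βRapKOGFP. WT library 1 lay among the diabetic libraries, whereas all 4 euglycemic libraries lay below all others and close together. Group means were 13.9 ± 4.05, 9.46 ± 0.758 and 5.33 ± 0.512 FPKM (SD, n = 3, 4 and 4). Euglycemic mutants thus had *Calcoco1* lower by a log2 fold change of -1.20 ± 0.21 (SE, adjusted p = 0.0199 by limma), and the mutants together by -0.84 ± 0.18 (adjusted p = 0.0481), a call that was lost in 17 of 24 alternatives, TPM and median-of-ratios scaling among them. In diabetic mutants the log2 fold change was -0.47 ± 0.21 with an adjusted p of 0.393.

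The difference of *Calcoco1* between the mutant groups was tested by itself. Diabetic libraries were higher than euglycemic ones by 0.73 ± 0.19 on the log2 scale, with an adjusted p of 0.123 by limma. The libraries of these groups did not overlap, which was also the case for 6.85% of all genes with diabetic libraries on the higher side. The call in euglycemic mutants was lost when WT library 2 (adjusted p = 0.166) or 3 (0.168) or euglycemic library 1 (0.0519), 2 (0.0764) or 3 (0.0563) was left out, with no minimum level for testing (0.0766) and with only the groups compared in the fit (0.102), and the adjusted p was 0.0041 without WT library 1. In the 3 mutant libraries with few acinar transcripts and the WT libraries, the log2 fold change of euglycemic mutants was -1.29 with an adjusted p of 0.205. With the length trend of each library removed it was -1.16 (adjusted p = 0.0271), and only 1.4% of the 50-base stretches of *Calcoco1* also occur in other genes.

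**Figure D2:**
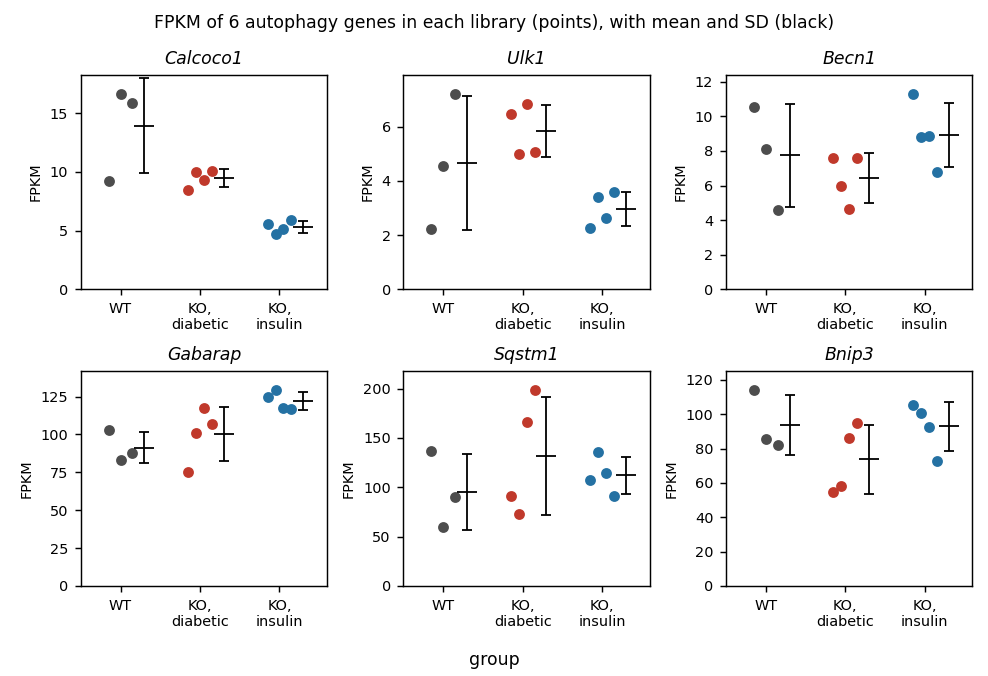
FPKM (vertical axis, from 0) of 6 autophagy genes in each library (points) with the mean and SD of the group (black), for WT (n = 3), diabetic βRapKOGFP (n = 4) and euglycemic βRapKOGFP (insulin, n = 4). For *Calcoco1* the 4 euglycemic libraries, at 4.70 to 5.87, lie below all the others, while for *Becn1* and *Sqstm1* the 3 groups overlap.

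The other cargo receptors did not pass the test in any of the 4 comparisons of the main fit. *Sqstm1* was called higher in all mutants against WT in 1 of 22 alternatives, that with library weights (lowest adjusted p = 0.0461 by limma). These proteins bind ubiquitylated cargo at one end and ATG8 proteins on the growing membrane at the other. *Sqstm1* was at 136, 59.7 and 90.0 FPKM in WT, at 91.0, 72.9, 166 and 198 in diabetic βRapKOGFP and at 108, 136, 115 and 90.8 in euglycemic βRapKOGFP. The WT libraries alone spanned more than a doubling, and diabetic libraries 3 and 4 were the highest of all. The log2 fold change of *Sqstm1* was 0.43 ± 0.35 (adjusted p = 0.698) in diabetic and 0.30 ± 0.35 (adjusted p = 0.73) in euglycemic mutants. *Nbr1*, encoding a receptor that acts with p62, had means of 17.8 ± 2.63 FPKM in WT, 21.6 ± 3.68 in diabetic and 16.8 ± 0.905 in euglycemic mutants, with no overlap between diabetic and either other group, although the lowest diabetic library (19.41) and the highest WT library (19.37) all but met. *Optn*, the gene of the mitophagy receptor optineurin, had means of 5.77 ± 0.276, 4.41 ± 1.116 and 4.56 ± 1.35 FPKM, and *Tax1bp1*, whose product also recognises ubiquitylated cargo, had 28.1 ± 4.68, 31.1 ± 6.56 and 26.4 ± 5.88. Of *Sqstm1*, 15.5% of the 50-base stretches also occur in other genes. It overlaps *Mrnip* on the opposite strand, and the kit used for the libraries does not mark strand.

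Within each library, *Calcoco1* had 0.627 to 0.859 times the FPKM of *Nbr1* in WT, 0.313 to 0.508 times in diabetic and 0.264 to 0.351 times in euglycemic mutants. Against *Tax1bp1* the groups overlapped: the ratio was 0.277 to 0.645 in WT, with WT library 1 lowest and inside the diabetic range of 0.261 to 0.44, and 0.157 to 0.333 in euglycemic mutants, where library 4 was highest. These ratios within libraries are descriptions and show unequal levels of the genes, not which of them changed.

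Initiation of autophagy runs through the ULK complex, in which the kinases ULK1 or ULK2 act with ATG13, FIP200 and ATG101. *Ulk1* was at 2.24, 4.55 and 7.20 FPKM in WT. It was at 6.48, 4.98, 6.82 and 5.07 in diabetic βRapKOGFP and at 2.27, 3.40, 2.64 and 3.61 in euglycemic βRapKOGFP. All diabetic libraries lay above all euglycemic libraries, while the WT libraries spanned both groups, with WT library 1 below them all. The log2 fold change of *Ulk1* was 0.36 ± 0.28 (adjusted p = 0.666) in diabetic and -0.42 ± 0.28 (adjusted p = 0.504) in euglycemic mutants against WT. *Atg13*, the regulatory partner of the kinases, had means of 19.4 ± 1.71, 24.4 ± 3.37 and 23.1 ± 4.53 FPKM in WT, diabetic and euglycemic libraries. *Atg101* had means of 35.4 ± 5.37, 23.3 ± 4.45 and 31.0 ± 13.7 FPKM, with euglycemic library 4 alone at 10.9. With the mean level of the acinar markers as a covariate in the fit, an alternative chosen after seeing the data, the log2 fold change of *Atg101* in diabetic mutants was 0.0007 in place of -0.59.

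The class III PI3-kinase complex, built of VPS34 (*Pik3c3*), its kinase-like partner VPS15 (*Pik3r4*) and Beclin 1 (*Becn1*) with either ATG14 or UVRAG, makes the phosphoinositide PI3P on the forming membrane. *Becn1* was at 10.5, 8.10 and 4.59 FPKM in WT. It was at 7.61, 5.95, 4.64 and 7.58 in diabetic βRapKOGFP and at 11.3, 8.78, 8.88 and 6.78 in euglycemic βRapKOGFP. The 3 groups overlapped, and its log2 fold changes of -0.19 ± 0.26 and 0.23 ± 0.26 against WT had adjusted p of 0.846 and 0.718. The values of *Becn1* are uncertain, since 43.9% of its exon bases overlap *Cntd1* on the opposite strand. *Uvrag*, which directs the complex to endosome and lysosome fusion, had means of 18.5 ± 2.79 FPKM in WT, 14.6 ± 3.34 in diabetic and 11.8 ± 4.07 in euglycemic mutants. Every euglycemic library of *Uvrag* lay below every WT library, and the log2 fold change of -0.66 ± 0.27 had an adjusted p of 0.308 by limma. Of the exon bases of *Uvrag*, 17.6% overlap *Gm45187* on the opposite strand. None of the 6 genes of this complex and its regulators, which include *Ambra1*, passed the test in any of the 4 comparisons.

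The next step reads PI3P and supplies lipid: WIPI proteins bind PI3P, ATG2 proteins transfer lipid, and the membrane proteins ATG9A and VMP1 scramble it. Of these 6 genes, 5 had estimates below 0 in euglycemic mutants against WT, with log2 fold changes of -0.50 ± 0.22 for *Atg2b* (adjusted p = 0.337), -0.46 ± 0.23 for *Atg9a* (0.391) and -0.44 ± 0.28 for *Atg2a* (0.5), and *Vmp1* had 0.37 ± 0.19 (0.405). The estimate of *Wipi1*, -0.09, was above 0 in 3 of 22 alternatives. None passed the test. In this comparison 17 of the 20 longer genes of the whole list had estimates below 0, and with the length trend removed *Atg2b* had -0.28, *Atg2a* -0.23, *Atg9a* -0.33 and *Vmp1* 0.39. Of the whole list, *Vmp1*, *Calcoco1* and *Atg10* (-0.75) were then at an unadjusted p of at most 0.05. The share of all genes under this treatment is not given here. *Atg9a* shares 30.5% of its 50-base stretches with other genes.

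A pair of conjugation systems then attach ATG12 to ATG5 and ATG8 proteins to lipid, with ATG7 as the shared activating enzyme, ATG10 and ATG3 as conjugating enzymes and ATG16L1 as the factor that places the ATG12-ATG5 conjugate. In diabetic mutants the estimates of all 6 genes were below 0, but 3 of them did not keep that sign in all alternatives, and no gene passed the test (lowest adjusted p = 0.503). *Atg5* was above 0 on the TPM scale, with library weights and without WT library 1 or diabetic library 2, *Atg3* with library weights, with the acinar covariate and without WT library 1, and *Atg7* without diabetic library 2. *Atg10* had means of 36.0 ± 5.88 FPKM in WT, 22.2 ± 3.65 in diabetic and 25.99 ± 11.7 in euglycemic mutants, where library 4 was at 8.89. *Atg12* had means of 13.6 ± 0.796, 10.5 ± 2.66 and 9.88 ± 2.99 FPKM. *Atg7* was low throughout, with means of 2.22 ± 0.276, 2.12 ± 0.489 and 1.90 ± 0.552 FPKM. The ATG4 proteases, which trim ATG8 proteins and free them again from lipid, ranged from *Atg4d*, at a mean FPKM of 22.1, to *Atg4c*, and none of the 4 passed the test. *Atg4a* shares 51.2% of its 50-base stretches with other genes.

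**Figure D3:**
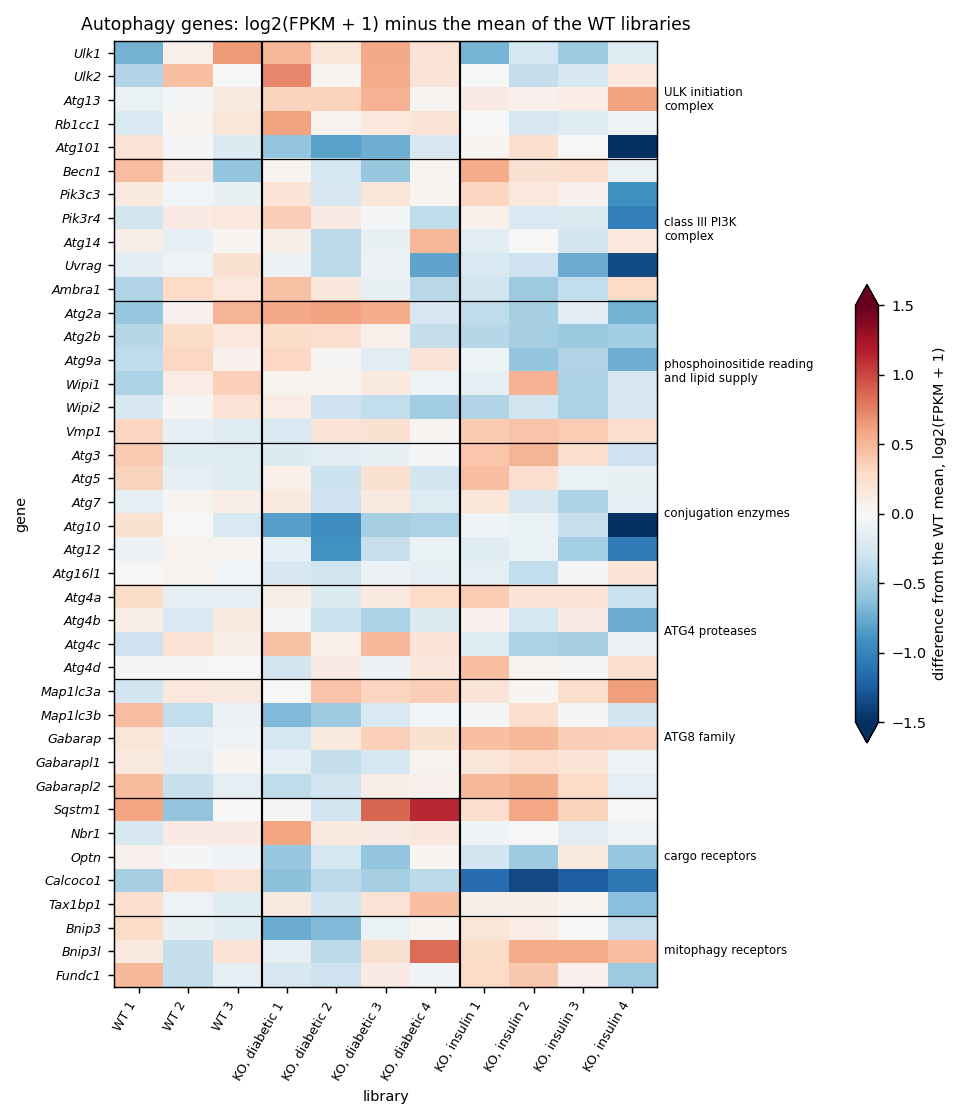
Log2(FPKM + 1) of each of the 40 autophagy genes (rows, by role) in each of the 11 libraries (columns), minus the mean of the 3 WT libraries, in colour from blue (lower) to red (higher), with values beyond 1.5 either way drawn at the end of the scale. *Calcoco1* is blue in all 8 mutant libraries and darkest in the 4 euglycemic ones (KO, insulin), where its FPKM was 4.70 to 5.87. WT library 1, at 9.27 FPKM, is blue for *Calcoco1* as well. Euglycemic library 4 differs from the other 3 for *Atg101* and *Atg10*.

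The ATG8 proteins, which coat the membrane and hold the receptors, come from 5 genes, of the LC3 subfamily (*Map1lc3a*, *Map1lc3b*) and the GABARAP subfamily (*Gabarap*, *Gabarapl1*, *Gabarapl2*). *Gabarap* was at 103, 83.1 and 87.6 FPKM in WT, at 75.4, 101, 117 and 107 in diabetic βRapKOGFP and at 125, 129, 117 and 117 in euglycemic βRapKOGFP. All euglycemic libraries were above all WT libraries, with a log2 fold change of 0.42 ± 0.19 (limma, adjusted p = 0.349), while the diabetic libraries overlapped both. With the length trend removed the estimate was 0.23.

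*Gabarapl2* was at 124, 70.4 and 80.1 FPKM in WT, at 67.8, 71.9, 95.1 and 93.0 in diabetic βRapKOGFP and at 124, 129, 108 and 80.8 in euglycemic βRapKOGFP. *Gabarapl1* was at 72.6, 58.2 and 67.0 FPKM in WT, at 59.98, 50.9, 54.5 and 68.3 in diabetic βRapKOGFP and at 74.9, 79.1, 76.2 and 62.1 in euglycemic βRapKOGFP. For both genes WT library 1 and euglycemic libraries 1 to 3 were high and the groups overlapped. *Gabarapl1* shares 23.1% and *Gabarapl2* 12.2% of its 50-base stretches with other genes. Of the exon bases of *Gabarapl1*, 28.3% overlap *1700101I11Rik* on the opposite strand, so its values are uncertain. *Map1lc3a* was at 14.5, 20.3 and 19.8 FPKM in WT, at 17.9, 24.6, 22.7 and 23.6 in diabetic βRapKOGFP and at 20.7, 18.4, 21.9 and 28.3 in euglycemic βRapKOGFP. *Map1lc3b*, whose product LC3B is the usual marker of autophagosomes, was at 18.8, 10.1 and 12.5 FPKM in WT, at 8.07, 8.87, 11.3 and 13.1 in diabetic βRapKOGFP and at 13.1, 16.1, 13.6 and 10.9 in euglycemic βRapKOGFP. All groups overlapped for the LC3 genes as well, and adjusted p for the 5 genes against WT was 0.349 or above in the main fit. *Gabarapl2* was called in euglycemic mutants in 1 of 23 alternatives, that with library weights. The lowest adjusted p of *Gabarap* there was 0.0196 over the alternatives (limma), and it was called in none.

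Summed over the family, ATG8 transcripts amounted to 281 ± 46.9 FPKM in WT, 273 ± 36.4 in diabetic and 341 ± 31.6 in euglycemic mutants (SD, n = 3, 4 and 4), with WT library 1, at 333, inside the range of the euglycemic libraries. The GABARAP subfamily made up 88.4% ± 1.35, 88.1% ± 0.811 and 89.4% ± 1.76 of the summed FPKM. *Map1lc3a* contributed from 4.36% to 9.59% over the 11 libraries, lowest in WT library 1. *Map1lc3b* contributed 4.85% ± 0.746 of the sum in WT, 3.75% ± 0.376 in diabetic mutants and 3.92% ± 0.337 in euglycemic ones, with WT overlapping both. These sums and shares are descriptions without a test, and they carry the uncertainty of *Gabarapl1* and *Gabarapl2*.

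**Figure D4:**
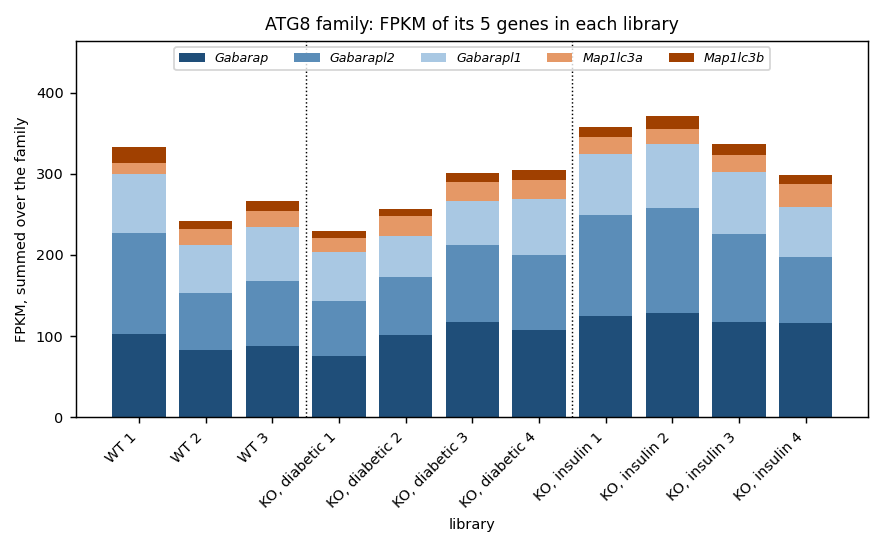
FPKM of the 5 ATG8 family genes (vertical axis, stacked from 0) in each of the 11 libraries (horizontal axis: WT, diabetic βRapKOGFP and insulin-treated, euglycemic βRapKOGFP). The 3 GABARAP genes (blue) made up 86.9% to 90.7% of the sum in every library, and the sum ran from 229 to 371 FPKM.

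BNIP3, BNIP3L and FUNDC1 sit in the outer mitochondrial membrane and bind ATG8 proteins directly, marking mitochondria for removal, and *Bnip3* is a well-known target of hypoxia signalling. *Bnip3* was at 114, 85.5 and 81.9 FPKM in WT, at 54.9, 58.4, 86.2 and 95.1 in diabetic βRapKOGFP and at 106, 101, 92.5 and 72.9 in euglycemic βRapKOGFP. Diabetic libraries 1 and 2 were the lowest, and the groups overlapped. *Bnip3* had a log2 fold change of -0.37 ± 0.24 (adjusted p = 0.594) in diabetic and -0.01 ± 0.24 (adjusted p = 0.987) in euglycemic mutants. *Bnip3l*, encoding NIX, had means of 12.4 ± 2.74, 14.3 ± 6.01 and 17.2 ± 1.62 FPKM, and its log2 fold change of 0.46 ± 0.27 in euglycemic mutants had an adjusted p of 0.458. WT libraries had 7.77 ± 1.84 times as much *Bnip3* as *Bnip3l*, against 5.40 ± 1.015 times in diabetic and 5.45 ± 1.18 times in euglycemic mutants, with overlapping ranges. *Bnip3* and *Bnip3l* share 47.2% and 20.8% of their 50-base stretches with other genes, which leaves their values uncertain, and *Fundc1* had means of 21.2 ± 6.99, 18.9 ± 2.80 and 22.0 ± 6.10 FPKM.

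Diabetic libraries were then compared with euglycemic ones. These groups differ in the insulin pellet and in blood glucose, which cannot be told apart here. No gene of the list was called, and 0.00889% of all genes were. At an unadjusted p of at most 0.05 there were 6 of the 40, against 20.6% of all genes, and all 6 were higher in diabetic libraries, against 10.6% of all genes on that side: *Atg2a* (log2 fold change 0.81 ± 0.26), *Ulk1* (0.79 ± 0.26), *Calcoco1* (0.73 ± 0.19), *Atg4c* (0.61 ± 0.19), *Atg2b* (0.56 ± 0.20) and *Atg9a* (0.55 ± 0.21). Their adjusted p ran from 0.123 to 0.184. The groups did not overlap for 6 genes on the higher side (*Ulk1*, *Rb1cc1*, *Atg2b*, *Atg4c*, *Nbr1*, *Calcoco1*), where 6.85% of all genes did not, and for *Vmp1* on the lower side, where 7.42% did not. All 5 ATG8 genes had estimates below 0 in this comparison, from -0.42 ± 0.23 for *Gabarapl2* to -0.0013 ± 0.19 for *Map1lc3a*, the last of which was above 0 on the TPM scale, with median-of-ratios scaling and in 5 other alternatives. With the length trend removed, *Map1lc3a* had 0.31, *Gabarap* had -0.03 in place of -0.30, *Gabarapl1* had -0.14 in place of -0.32 and *Gabarapl2* had -0.21 in place of -0.42, while *Map1lc3b* had -0.33 in place of -0.36. The 3 mitophagy receptors were likewise below 0, and none of these 8 passed the test. *Bnip3l* had 0.29 when only the libraries with few acinar transcripts were used, and with the length trend removed *Bnip3* had -0.17 in place of -0.36, *Fundc1* -0.03 in place of -0.17 and *Bnip3l* -0.40 in place of -0.33.

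The differences between the mutant groups moved with the length of the transcript. Among the 20 longer genes (3285 bases or more), the median log2 fold change of diabetic against euglycemic libraries was 0.24 and 17 estimates were above 0. Among the 20 shorter genes (3259 bases or fewer) the median was -0.19 and 16 were below 0. Pearson's r between log2 length and log2 fold change was 0.61 over the 40 genes and 0.496 over 11208 genes tested. This is a correlation across genes that share the same 8 libraries, and genes are not independent replicates. When the smooth trend with length was removed from every library, a treatment chosen after seeing the data, the medians were 0.04 for longer and -0.03 for shorter genes. At an unadjusted p of at most 0.05 there were then 6 genes, *Atg2a*, *Atg4c*, *Atg4d*, *Becn1*, *Calcoco1* and *Ulk1*, against 12.9% of all genes. Of these, *Becn1* (-0.63) and *Atg4d* (-0.50) were lower in diabetic libraries and the other four were higher. *Calcoco1* kept 0.70 of its 0.73 and *Ulk1* had 0.52 in place of 0.79, while *Atg2b* went from 0.56 to 0.23.

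**Figure D5:**
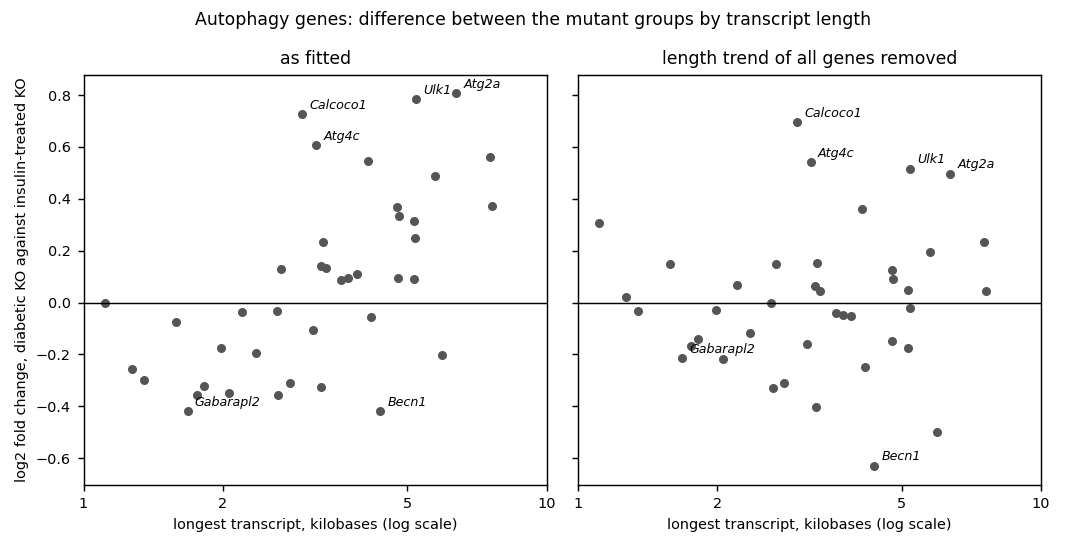
Log2 fold change of diabetic against euglycemic (insulin-treated) βRapKOGFP for the 40 autophagy genes (vertical axis) against the length of the longest transcript in kilobases (horizontal axis, log scale), as fitted on the left and with the length trend of all genes removed on the right. On the left the longer genes lie mostly above 0 (17 of 20) and the shorter mostly below (16 of 20), and on the right *Calcoco1*, at 0.70, lies highest.

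Beyond the 40 genes, a list of 54 further autophagy genes was examined, of which 48 passed the minimum for testing. It holds further core factors, the machinery that fuses autophagosomes with lysosomes, further selective receptors and transcriptional regulators such as *Tfeb*, *Tfe3* and *Foxo1*. None was called in any of the 4 comparisons by limma. At an unadjusted p of at most 0.05 there were 2 in diabetic mutants (1 higher, 1 lower), 9 in euglycemic mutants (2 higher, 7 lower), 8 between the mutant groups (5 higher and 3 lower in diabetic libraries) and 1, lower, in all mutants against WT, against 11.9%, 13.9%, 20.6% and 11.3% of all genes. By direction, the shares of all genes were 6.15% higher and 5.74% lower in diabetic mutants, 7.33% and 6.52% in euglycemic mutants, 10.6% and 10% between the mutant groups, and 5.37% lower in all mutants. Of the 9 in euglycemic mutants, 4 were core or accessory factors, 4 belonged to fusion with the lysosome and 1 was a selective receptor. With the length trend removed, *Zfyve1*, *Trp53inp2* and *Phb2* were no longer at an unadjusted p of at most 0.05, while *Pink1* and *Foxo1* then were. Among the 9 transcriptional regulators tested the lowest adjusted p against WT was 0.567.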

How the data were processed

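The authors prepared poly(A) RNA libraries from sorted GFP+ cells, mapped the paired reads to mm10 and deposited FPKM values, 1 column per library. The study's methods name Tophat and Cufflinks for these values, whereas the submitters' processing notes name HISAT2 2.0.4, StringTie 1.3.0 and edgeR. Which of these made the table is not given in the sources used here. FPKM of low genes depends on the transcript models used, and a non-stranded kit cannot separate overlapping genes on opposite strands. The columns marked KI were taken as the 4 insulin-treated samples, by elimination from the titles.

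Of 34745 table entries, 34267 were matched to a symbol (GENCODE vM21) and 478 were not, and 17 duplicate entries were left out. Depth was inferred from whole-fragment steps of the values in genes with a single exon of 500 bases or more, where 86.2% to 93.8% of low values came out whole (tolerance 0.02). It is an inference, so no count test was run.

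Fits used limma 3.58.1 in R 4.3.3 (lmFit, eBayes with trend) on log2(FPKM + 1), a scale that understates changes of low genes, with all 11 libraries and the 11251 genes that reached 1 FPKM in 3 or more libraries. A gene was called at an adjusted p (Benjamini-Hochberg, over all genes tested) not above 0.05 and a change of 1.5-fold or more, and the script was tested on simulated data. Exact permutation tests were two-sided (scipy 1.17.1, Python 3.11.15). The 40 genes, the 54 further genes, the markers and the motifs were chosen with earlier results of these data known. Values in every library are given for genes called in any comparison, the 5 ATG8 genes, *Ulk1*, *Becn1*, *Sqstm1* and *Bnip3*, and for *Rptor*. Alternatives were the pseudocount, the filter, TPM or median-of-ratios scaling, no trend, library weights, unadjusted p, only the groups compared, the replicate number as a block, and leaving out each library. Removal of the length trend, an acinar covariate and a fit of low-acinar libraries were chosen after seeing the data. Protein sequences were not analysed here.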

Additional observations from a re-analysis of the deposited data

Results flagged for a closer look

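In 6 of the 80 groups of 4 mutant libraries examined (40 genes in each mutant group), 1 library stood far from the other 3 by Dixon's criterion, which chance alone meets in about 1 of 20 groups. Of these, 4 are in the same library, euglycemic βRapKOGFP 4, the shallowest by inferred depth and the highest in acinar transcripts (3692 summed FPKM). There *Atg13* was at 29.84 FPKM against 20.3 to 21.2 in the other 3, *Atg101* at 10.86 against 35.2 to 41.6, *Atg10* at 8.891 against 27.8 to 34.0 and *Tax1bp1* at 17.65 against 28.5 to 29.96. *Atg2a* in diabetic βRapKOGFP 4, the only diabetic library with few acinar transcripts, was at 1.552 FPKM against 3.45 to 3.61. *Nbr1* in diabetic βRapKOGFP 1, the library with the highest endothelial markers (49.7 summed FPKM), was at 27.08 against 19.4 to 20.1. The part of depth or of other cells in these values was not tested.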

How the results depend on the processing

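In every alternative the median log2 fold change of the 40 genes moved by less than the spread between libraries, which was 0.229. That spread is wider than the medians themselves. With a mean FPKM of at least 5 the median was -0.0757 in place of 0.02 in diabetic mutants against WT. It was 0.0547 in place of -0.091 in euglycemic mutants against WT and -0.076 in place of 0.0884 between mutant groups. On the TPM scale the diabetic median was 0.0908. Counts of calls depended on the settings. Comparisons are named here in the order diabetic, euglycemic and all mutants against WT, then diabetic against euglycemic. With unadjusted p in place of adjusted p and the 1.5-fold minimum kept, the genes called were 929, 1116, 779 and 1355, with 2 of the 40 in euglycemic mutants and 4 between mutant groups, and 2, 3, 0 and 4 further pathway genes. With library weights they were 551, 2287, 1116 and 1212, with 1, 6, 2 and 5 of the 40 and 1, 10, 2 and 2 further genes. In euglycemic mutants the members were *Ulk1*, *Ambra1*, *Atg2b*, *Atg9a*, *Gabarapl2* and *Calcoco1*, and in all mutants *Calcoco1* and *Sqstm1*. The replicate block gave 45, 20, 53 and 0 genes and 0 of the 40, and *Calcoco1* in euglycemic mutants then had an adjusted p of 0.0949. The numbers did not pair the libraries: deviations of same-numbered libraries correlated by -0.132 on average (10 pairs, -0.368 to 0.212) and others by 0.0433. Without the filter there were 22, 13, 23 and 0 genes and 0 of the 40 (*Calcoco1* in euglycemic mutants 0.0766), and with a mean FPKM of at least 5 there were 71 in diabetic and 71 in all mutants against WT and 0 between mutant groups. Fitting only the groups compared gave 17 genes and 0 of the 40 in euglycemic mutants (*Calcoco1* 0.102) and 6 genes between mutant groups. The acinar covariate gave 45, 34, 52 and 0 genes, and the low-acinar libraries gave 1, 6, 36 and 0 with 0 of the 40 in euglycemic and in all mutants. Between mutant groups 0 genes were called with a pseudocount of 0.1, TPM, the median of ratios or the length trend removed. *Calcoco1* in all mutants was not called with a pseudocount of 0.1, TPM, the median of ratios, no trend, no filter, the block, the acinar covariate or the low-acinar libraries (0 of the 40), and it missed the threshold in 17 of 24 alternatives, its adjusted p running from 0.00023 to 0.334. In euglycemic mutants it missed it in 9 of 25, with a log2 fold change from -1.46 to -1.06 in all of them. Leaving out 1 library gave 23 to 209, 10 to 532, 28 to 179 and 0 to 380 genes called, 0, 0 to 1, 0 to 1 and 0 to 2 of the 40, and 0, 0 to 2, 0 to 1 and 0 further genes, the highest members' count (*Calcoco1* and *Ulk1*) without WT 1. The causes were not tested. TPM moved the median of all genes by 0.112 between mutant groups, where *Calcoco1* then had 0.90. The sign of the estimate held in all alternatives for 19, 27, 19 and 20 of the 40. The lowest gene rested on 31 to 97 inferred fragments a library, and no detection limit was computed.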
